A study of Mus musculus with 30 samples.

Results

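Expression of 10 genes of the lipid droplet coat and of lipolysis was examined in 3T3-L1 cells, a mouse preadipocyte line that forms fat cells in adipogenic medium. The genes were taken as a fixed list of symbols: 5 coat proteins (Plin1, Plin2, Plin3, Plin4, Cidec), 3 lipases (Pnpla2, Lipe, Mgll) and 2 regulators of the lipases (Abhd5, G0s2). They are 10 of the 54232 genes in the count table, and all 10 were among the 20139 genes tested. The question was how these transcripts differed when cells met an oxidant stimulus, with and without a peptide that blocks signaling by Na,K-ATPase through Src.

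RNA-Seq was done on 6 groups of 5 libraries. Control cells received adipogenic medium alone for 5 days, and every other group received the same medium. The pNaKtide group received the peptide pNaKtide (0.7 µM). The IS group received indoxyl sulphate (100 µM), a toxin retained in renal failure, and the IS + pNaKtide group received both. The oxLDL group received oxidized low-density lipoprotein (50 µg/mL), and the oxLDL + pNaKtide group received both. The labels give 5 days of treatment, whereas the methods of the study describe a shorter schedule of repeated dosing. All libraries come from the same cell line by their source and cell line labels, although the text on extraction names adipose tissue. The labels do not say that the 5 libraries of a group came from separate cultures, so p-values measure the spread between these libraries, which may be technical.

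Fat cells store triglyceride in droplets whose surface is covered by perilipins and CIDE proteins. Lipolysis removes the fatty acids in turn: adipose triglyceride lipase (encoded by Pnpla2) cuts triglyceride, hormone-sensitive lipase (Lipe) cuts diglyceride, and monoglyceride lipase (Mgll) frees the last fatty acid. Abhd5 encodes CGI-58, the co-activator of adipose triglyceride lipase, which perilipin 1 holds at the droplet until hormones raise cyclic AMP, and G0s2 encodes an inhibitor of the same lipase.

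The coat genes lie on the minus strand of GRCm38, by the GENCODE M21 annotation. They are Plin1 (ENSMUSG00000030546, chr7:79720218-79732903), Plin2 (ENSMUSG00000028494, chr4:86648386-86670060) and Cidec (ENSMUSG00000030278, chr6:113424634-113435760). Plin3 (ENSMUSG00000024197, chr17:56277476-56292873) and Plin4 (ENSMUSG00000002831, chr17:56100591-56109803) lie on the same chromosome. Of the lipases, Pnpla2 (ENSMUSG00000025509, chr7:141455198-141460743) and Mgll (ENSMUSG00000033174, chr6:88724412-88828360) lie on the plus strand and Lipe (ENSMUSG00000003123, chr7:25379527-25398710) on the minus strand. Abhd5 (ENSMUSG00000032540, chr9:122351608-122381524) is on the plus strand and G0s2 (ENSMUSG00000009633, chr1:193272161-193273217) on the minus strand.

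Promoters of 4 genes are printed because Pnpla2 and Lipe had the largest changes of the 10 genes when pNaKtide was added to oxLDL, Plin2 changed in the same direction, and Plin1 did not pass the test. Each runs from 250 bases before to 50 bases after the RefSeq start site (GRCm38.p6) and is written 5′ to 3′ along the gene, with capitals for CCAAT and for the GC box GGGCGG, either in that form or as its reverse complement. The windows are chr7:141454938-141455237 (plus strand) for Pnpla2, chr7:25395938-25396237 (minus strand) for the upstream start of Lipe, chr4:86670010-86670309 (minus strand) for Plin2 and chr7:79732727-79733026 (minus strand) for Plin1.
Pnpla2: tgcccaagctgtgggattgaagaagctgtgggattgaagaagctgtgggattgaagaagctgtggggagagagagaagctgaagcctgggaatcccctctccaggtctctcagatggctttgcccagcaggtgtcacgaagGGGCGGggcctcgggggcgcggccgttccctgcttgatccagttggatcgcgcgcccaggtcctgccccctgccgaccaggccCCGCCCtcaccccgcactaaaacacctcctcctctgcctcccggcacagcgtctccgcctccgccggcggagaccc
Lipe: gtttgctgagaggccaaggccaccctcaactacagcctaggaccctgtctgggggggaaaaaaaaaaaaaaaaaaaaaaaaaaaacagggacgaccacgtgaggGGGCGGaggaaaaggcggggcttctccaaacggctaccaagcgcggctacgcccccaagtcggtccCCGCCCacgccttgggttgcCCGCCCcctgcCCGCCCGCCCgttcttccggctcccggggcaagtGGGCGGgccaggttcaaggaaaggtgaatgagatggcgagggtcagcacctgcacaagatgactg
Plin2: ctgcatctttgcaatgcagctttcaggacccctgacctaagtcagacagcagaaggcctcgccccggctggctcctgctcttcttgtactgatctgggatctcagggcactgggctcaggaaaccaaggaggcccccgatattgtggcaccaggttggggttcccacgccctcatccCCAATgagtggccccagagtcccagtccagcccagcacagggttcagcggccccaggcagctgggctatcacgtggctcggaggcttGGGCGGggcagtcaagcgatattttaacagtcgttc
Plin1: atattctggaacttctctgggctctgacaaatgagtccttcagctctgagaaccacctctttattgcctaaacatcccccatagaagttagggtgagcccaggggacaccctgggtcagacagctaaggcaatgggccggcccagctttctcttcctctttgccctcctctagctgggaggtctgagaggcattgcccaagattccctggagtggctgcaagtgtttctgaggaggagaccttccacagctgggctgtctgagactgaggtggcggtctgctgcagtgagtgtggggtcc

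The Pnpla2 window held 2 GC boxes, at -109 and -26 from the start site. The upstream Lipe window held 6, of which those at -49 and -45 overlap, and a downstream Lipe start held 0. Plin2 held 1 GC box and 1 CCAAT box, and Plin1 held neither. Over both strands, a GC box was present in 8 of the 13 RefSeq promoters of the 10 genes and in 35.7% of all 32851 promoters of that length. CCAAT was present in 3 of 13 and 37.4% of all. The E-box CACGTG was present in 3 of 13 (7.15% of all), the receptor half-site AGGTCA in 2 (16.3%), and TATAAA in 0 (13.6%). A direct repeat of that half-site with 1 base between, the form bound by PPAR, was found in 0 of 13 and in 0.0396% of all, and the cyclic AMP element TGACGTCA in 0 and 1.79%. These matches describe letters in the window only.

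Gene counts summed to 6945498 to 15159877 in a library (median 11524210). Counts were scaled to CPM with edgeR's TMM factors, and the common biological coefficient of variation was 14%. The first principal component of log2 CPM held 64.4% of the variance, and in each group but oxLDL 1 library lay away from the other 4 on it. IS replicate 4 scored 28.2 against -36.7 to -23.2 in the other IS libraries, and IS + pNaKtide replicate 2 scored -2.45 against -18.5 to -15.3, both past the 95% critical value of Dixon's test. Control replicate 1 (-25.8 against 6.47 to 29.9) and pNaKtide replicate 3 (-5.36 against 15.9 to 36.6) did not pass it. oxLDL + pNaKtide replicate 4, with the smallest total of counts (6945498) and the lowest TMM factor (0.870) of the 30, scored 67.5 against 14.5 to 33.2 and did not pass it either. Counts of called genes were also computed without control replicate 1 and IS replicate 4 together and without each library in turn. Control replicate 1 scored in the range of the other IS libraries, and IS replicate 4 in that of the other control libraries. Leaving out both thus sets IS and control further apart on the first principal component by construction. Without control replicate 1 and IS replicate 4 the count of the 10 genes stayed at 0 for pNaKtide and oxLDL + pNaKtide against control, IS + pNaKtide against IS and IS against oxLDL. With all libraries these comparisons called 0.00497%, 5.2%, 0% and 0.0149% of all genes, in that order. The shares without both libraries are not given here. All 9 adipocyte markers examined were detected, with a summed level of 7527 to 11050 CPM per library. The 6 macrophage markers summed to 6.73 to 13.9 CPM, with Ptprc and Itgam at 0 counts in every library and Cd14 and Cd68 detected. The 4 muscle markers summed to 10.9 to 37.6 CPM, with Myod1 and Myog at 0 counts in every library and Des detected, and the 4 endothelial markers to at most 0.614 CPM. The summed level of 7 preadipocyte or fibroblast markers was 2223 to 3261 CPM in control, 1477 to 2907 with pNaKtide, 1248 to 2529 with IS, 1182 to 1787 with IS + pNaKtide, 1713 to 2035 with oxLDL and 1739 to 3170 with oxLDL + pNaKtide. Most of this sum came from Col1a1, with a mean of 2292 CPM in control and 1547 CPM with oxLDL. The sums of the IS + pNaKtide and oxLDL libraries lay below those of every control library. For IS + pNaKtide 1 of the 7 markers was called lower than control, against 0.218% of all genes. For oxLDL 2 of the 7 were, against 18% of all genes. The part of these markers in the results below was not tested. In bulk RNA, fewer cells with a transcript and less transcript per cell cannot be told apart.

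The level per transcript length, taken from the deposited FPKM values, spread widely over the 10 genes. Cidec, whose product joins droplets and lets them grow, stood highest with a median of 2743 FPKM over the 30 libraries and was the gene of rank 12 among those tested. Pnpla2 followed with 692 FPKM (rank 89). Plin4 (305 FPKM) and Plin2 (302 FPKM) did not differ beyond their spread, with ranges of 232 to 388 and 231 to 434. Lipe (154 FPKM), G0s2 (142) and Plin1 (122) came next, with overlapping ranges of 109 to 226, 107 to 203 and 103 to 153. Abhd5 (78.1 FPKM), Plin3 (41.1) and Mgll (2.76) were lowest. Mgll rested on 108 to 206 counts per library, while none of the other genes had fewer than 642. Adipose triglyceride lipase thus had the highest level per length of the 3 lipases in every library, as the plot of FPKM by library shows.

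**Figure D1:**
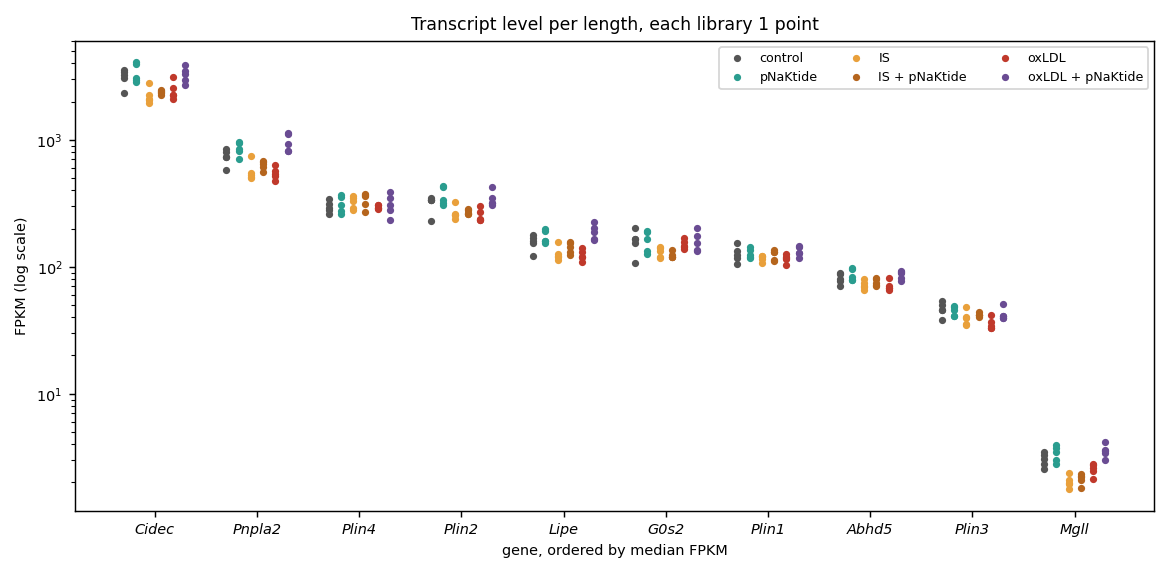
FPKM of each gene on a log axis, 1 point per library, in 6 groups of 5 libraries, with genes ordered by their median over the 30 libraries. Cidec lay between 1951 and 4091 FPKM and Mgll between 1.77 and 4.19.

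Cells given oxLDL had lower transcript levels of 5 of the 10 genes than control cells. Lower were the coat genes Plin2, Plin3 and Cidec and the lipases Pnpla2 and Lipe, by 20 to 26%, and none was higher. The other 5 genes, among them both regulators, did not pass the test. Of all genes tested, 36% were called in this comparison (18% lower). The median log2 fold change was -0.28 over the 10 genes and 0.045 over all genes.

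Pnpla2 was at 1762, 2221, 2261, 2455 and 2576 CPM in control libraries 1 to 5. With oxLDL it was at 1457, 1646, 1932, 1762 and 1593 CPM. Only control replicate 1 of the control libraries reached into the range of the oxLDL libraries. The mean was 2255 ± 311 CPM in control and 1678 ± 180 with oxLDL (SD, n = 5). The log2 fold change was -0.43, with an SE of 0.12 and a BH-adjusted p-value of 0.0131 in edgeR's quasi-likelihood test. Lipe was at 718, 912, 954, 999.3 and 1064 CPM in control and at 655, 714, 833, 788 and 717 CPM with oxLDL. Here too control replicate 1 alone lay inside the oxLDL range. Its log2 fold change was -0.33 (SE 0.11, adjusted p 0.0301, edgeR). Mgll, at 12.96 to 17.8 CPM in control and 11.04 to 14.7 with oxLDL, gave -0.23 (SE 0.11, adjusted p 0.113, edgeR).

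Among the coat genes, Plin3, the perilipin found in most tissues, had the smallest adjusted p-value. It was at 82.4, 99.0, 99.4, 109 and 117 CPM in control and at 75.3, 72.4, 80.2, 93.2 and 72.1 CPM with oxLDL. Control replicate 1 and oxLDL replicate 4 produced the overlap. Its log2 fold change, -0.37 (SE 0.09, adjusted p 0.00957, edgeR), passed the threshold in all 11 alternative settings. Plin2, the perilipin that coats droplets from early in their growth, was at 819, 1198, 1203, 1238 and 1199 CPM in control and at 852, 832, 1052, 970 and 828 CPM with oxLDL. All oxLDL libraries lay below the 4 highest control libraries (log2 fold change -0.32, SE 0.12, adjusted p 0.039, edgeR). Cidec was at 4335 to 6639 CPM in control and 3956 to 5859 with oxLDL (-0.34, SE 0.13, adjusted p 0.0493, edgeR). Plin1, the perilipin of mature fat cells that controls access of the lipases, was at 494 to 721 CPM in control and 486 to 592 with oxLDL (-0.11, SE 0.09, adjusted p 0.401, edgeR). Plin4 had means of 1740 ± 183 and 1733 ± 50.4 CPM (log2 fold change -0.0055, SE 0.12, adjusted p 0.978, edgeR).

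The co-activator gene Abhd5 was at 420 to 539 CPM in control and 396 to 492 with oxLDL (-0.19, SE 0.09, adjusted p 0.106, edgeR). The inhibitor gene G0s2 was at 94.0 to 178 CPM and 123 to 147 CPM (-0.073, SE 0.13, adjusted p 0.718, edgeR). The ratio of G0s2 to Pnpla2 in FPKM was 0.264 to 0.293 in oxLDL libraries and 0.185 to 0.240 in control libraries, given as a description without a test.

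Some of these calls depended on single libraries or on the scaling. Without control replicate 1, Mgll (-0.29, adjusted p 0.0387) and Abhd5 (-0.24, adjusted p 0.0317) passed the threshold, and Abhd5 also did without oxLDL replicate 3 (-0.24, adjusted p 0.0446) and Mgll without oxLDL replicate 4 (-0.28, adjusted p 0.0761, all by edgeR). Cidec lost its call without control replicate 4 or 5 or oxLDL replicate 1, 2 or 5, at log2 fold changes of -0.31 to -0.29. When the trend of a library over GC content and transcript length was taken out, Pnpla2 (-0.18, adjusted p 0.126), Lipe (-0.14, adjusted p 0.305) and Cidec (-0.047, adjusted p 0.767) were no longer called by edgeR, whereas Plin2 (-0.24, adjusted p 0.0487) and Plin3 (-0.20, adjusted p 0.0417) were. In the same setting Abhd5 was called lower (-0.27, adjusted p 0.0314) and G0s2 higher (0.35, adjusted p 0.0546, both by edgeR). The trend explained 5.63 to 56.9% of the variance of a library's deviations over genes, and 9 of the 10 genes had a GC content above the median of genes, at percentiles up to 89. With library sizes as the only scaling, the median of all genes moved from 0.045 to 0.17 and Plin3 (-0.24), Pnpla2 (-0.30) and Lipe (-0.19) were called, with the sign of Plin1, Plin4 and G0s2, none of them called, turned to positive. Markers moved in the same comparison, and their part was not tested. Of 9 adipocyte markers 1 was higher with oxLDL, Cd36 (0.53, adjusted p 0.0109, edgeR), and 2 were lower, Cfd (-0.53, adjusted p 0.0269) and Cebpa (-0.30, adjusted p 0.0451, both by edgeR). Of 7 preadipocyte or fibroblast markers 2 were lower, Dlk1 (-0.69, adjusted p 0.0369) and Col1a1 (-0.57, adjusted p 0.0481, both by edgeR). The macrophage marker Cd14 (-0.47, adjusted p 0.024) and the muscle marker Des (-0.70, adjusted p 0.0126, all by edgeR) were also lower.

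**Figure D2:**
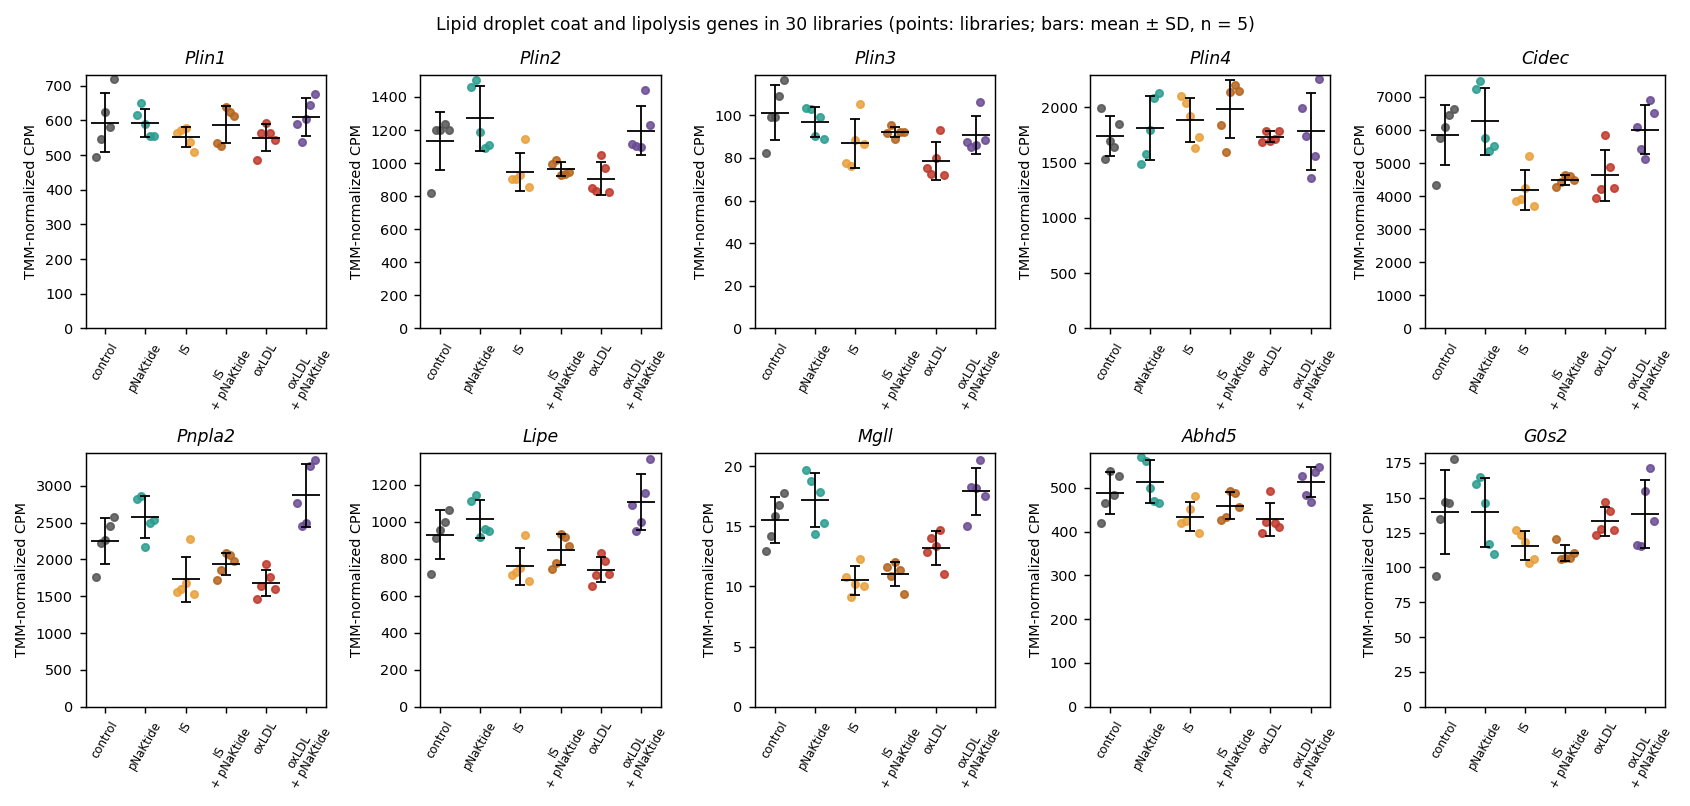
TMM-normalized CPM of the 10 genes, 1 panel per gene with an axis from 0, points for the 30 libraries and bars for the mean ± SD of 5 libraries in each of the 6 groups. Pnpla2 lay between 1457 and 1932 CPM in oxLDL libraries and between 2458 and 3352 CPM in oxLDL + pNaKtide libraries.

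Cells given IS had lower transcript levels of 3 of the 10 genes than control cells, and none was higher. These were the lipase genes Mgll and Pnpla2 and the coat gene Cidec, lower by 23 to 33%. Of all genes tested, 7.94% were called (3.49% lower). The median log2 fold change was -0.27 over the 10 genes and 0.025 over all genes.

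Mgll was at 12.96, 14.2, 15.9, 16.8 and 17.8 CPM in control libraries 1 to 5 and at 10.8, 9.10, 10.2, 12.3 and 10.1 CPM with IS. It was the only gene of the 10 whose groups did not overlap here, against 1.81% of all genes. The log2 fold change was -0.57 (SE 0.11, BH-adjusted p-value 0.0173, edgeR's quasi-likelihood test). Pnpla2 was at 1559, 1604, 1687, 2274 and 1537 CPM with IS, so that IS replicate 4 alone lay among the control libraries, and its log2 fold change against control was -0.38 (SE 0.12, adjusted p 0.0832, edgeR). Cidec was at 3854, 3919, 4253, 5225 and 3713 CPM with IS, against 4335, 5756, 6077, 6456 and 6639 CPM in control (-0.48, SE 0.13, adjusted p 0.0614, edgeR). The overlap of Cidec came from IS replicate 4 and control replicate 1.

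The other genes did not pass the test. Lipe gave -0.29 (SE 0.11, adjusted p 0.117, edgeR), with 679 to 928 CPM under IS, and Plin2 gave -0.26 (SE 0.12, adjusted p 0.169, edgeR), with 858 to 1147 CPM. Plin3 (-0.22), Abhd5 (-0.17), G0s2 (-0.27) and Plin1 (-0.10) had adjusted p-values of 0.146 to 0.503 (edgeR). Plin4, which coats small nascent droplets, was the only gene with a positive sign (0.12, SE 0.12, adjusted p 0.571, edgeR), at 1635 to 2102 CPM under IS.

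The count for IS depended on single libraries more than that of any other comparison here. Without control replicate 1 it was 8 genes, with 33.4% of all genes called in that fit, and without IS replicate 4 it was 7, with 34.4%. Without both of these libraries, 45.8% of all genes were called and 8 of the 10 were lower, all but Plin1 and Plin4. Their log2 fold changes ran from -0.25 for Abhd5 (adjusted p 0.019, edgeR) to -0.68 for Mgll (adjusted p 4.92e-05, edgeR), and Pnpla2 reached -0.58. Each of these 2 libraries scored with the opposite group on the first principal component, so leaving out both widens the difference there by construction. The count was 0 without control replicate 5, where Mgll gave -0.51 (adjusted p 0.104, edgeR). It was 1, with Mgll alone called, without control replicate 2, 3 or 4 or IS replicate 1, 2, 3 or 5, and 0 in a model of the control and IS libraries alone. With the GC and length trend out, Mgll (-0.44, adjusted p 0.0158) and Cidec (-0.29, adjusted p 0.0562) stayed called and Pnpla2 (-0.23, adjusted p 0.109, edgeR) did not. Of the 9 adipocyte markers 1 was higher with IS, Cd36 (0.45, adjusted p 0.0817, edgeR), and 3 were lower, among them Cebpa (-0.46, adjusted p 0.0487) and Adipoq (-0.43, adjusted p 0.0719, both by edgeR). Of the 7 preadipocyte or fibroblast markers Col1a1 (-0.79, adjusted p 0.0628) and Ly6a (-0.44, adjusted p 0.095, both by edgeR) were lower. The part of these markers was not tested.

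IS and oxLDL libraries were also compared with each other. None of the 10 genes was called by edgeR, against 0.0149% of all genes, and 1 had an unadjusted p-value under 0.05. DESeq2 called 0. That gene was Mgll, at 9.10 to 12.3 CPM with IS and 11.04 to 14.7 CPM with oxLDL (log2 fold change -0.33, SE 0.11, adjusted p 0.78, edgeR). The comparisons of oxLDL and of IS with control share the 5 control libraries.

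pNaKtide given alone changed none of the 10 genes past the threshold, by edgeR or by DESeq2, and none had an unadjusted p-value under 0.05. Of all genes, 0.00497% were called. The largest log2 fold change of the 10 was that of Pnpla2, at 2822, 2858, 2167, 2497 and 2535 CPM against a control mean of 2255 (0.19, SE 0.12, adjusted p 0.889, edgeR). Replicates 1 and 2 of pNaKtide were the highest libraries of their group for every gene of the list but Plin4, for which they were the lowest. The other log2 fold changes ran from -0.065 for Plin3 to 0.17 for Plin2.

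pNaKtide added to oxLDL gave higher transcript levels of 7 of the 10 genes than oxLDL alone. All 3 lipase genes were higher, with Pnpla2 1.71-fold, Lipe 1.49-fold and Mgll 1.36-fold. Of the coat genes Plin2 was 1.32-fold, Cidec 1.30-fold and Plin3 1.15-fold higher, and of the regulators Abhd5 was 1.20-fold higher. None was lower, and Plin1, Plin4 and G0s2 did not pass the test. Of all genes tested, 48.3% were called (22.1% higher). The median log2 fold change was 0.32 over the 10 genes and -0.086 over all genes.

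With oxLDL + pNaKtide, Pnpla2 was at 2768, 2458, 2498, 3272 and 3352 CPM in libraries 1 to 5. The lowest of these lay above the highest oxLDL library, at 1932 CPM. The mean was 2870 ± 422 CPM (SD, n = 5) and the log2 fold change against oxLDL 0.77 (SE 0.12, BH-adjusted p-value 2.33e-05, edgeR's quasi-likelihood test). Lipe was at 1089, 952, 1001, 1156 and 1338 CPM, again above every oxLDL library, of which the highest was at 833 CPM (0.58, SE 0.11, adjusted p 0.000152, edgeR). Mgll was at 15.1, 18.3, 18.2, 20.5 and 17.5 CPM against 12.8, 14.02, 13.3, 14.7 and 11.04 CPM with oxLDL, without overlap (0.44, SE 0.11, adjusted p 0.00185, edgeR). The calls of these 3 lipase genes held in all 10 alternatives that bear on this comparison and in each of the 10 fits without 1 library of the compared groups.

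Plin2 was the only coat gene without overlap, at 1114, 1103, 1095, 1443 and 1230 CPM against at most 1052 CPM with oxLDL (0.40, SE 0.12, adjusted p 0.00559, edgeR). Groups did not overlap for 4 of the 10 genes in all, against 28.4% of all genes. Cidec was at 6100, 5424, 5117, 6896 and 6514 CPM, and oxLDL replicate 3, at 5859, lay among them (0.38, SE 0.13, adjusted p 0.0184, edgeR). Plin3 was at 87.4, 85.3, 86.2, 106 and 88.2 CPM (0.20, SE 0.09, adjusted p 0.0823, edgeR), with oxLDL replicate 4 at 93.2. Plin1 was at 536 to 677 CPM (0.15, SE 0.09, adjusted p 0.201, edgeR). Plin4 was at 1363 to 2252 CPM against 1682 to 1790 CPM with oxLDL, with 2 of its 5 libraries with pNaKtide above the narrow oxLDL range, 2 below it and 1 inside (0.040, SE 0.12, adjusted p 0.827, edgeR).

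Of the regulators of adipose triglyceride lipase, Abhd5 was called and G0s2 was not, and the difference between them was not tested. Abhd5 was at 528, 484, 468, 535 and 548 CPM against 396, 422, 492, 419 and 411 CPM with oxLDL, with oxLDL replicate 3 in the overlap (0.26, SE 0.09, adjusted p 0.0158, edgeR). With library size alone it was at 0.036 (adjusted p 0.695, edgeR) and not called. G0s2 was at 116, 115, 155, 171 and 134 CPM against 123, 128, 147, 140 and 127 CPM (0.054, SE 0.13, adjusted p 0.775, edgeR). The FPKM ratio of G0s2 to Pnpla2 was 0.138 to 0.215 with oxLDL + pNaKtide, below all 5 oxLDL libraries, and the ratio of Abhd5 to Pnpla2 was 0.0829 to 0.0998 against 0.121 to 0.138. The ratio of Lipe to Pnpla2 was 0.181 to 0.206 against 0.221 to 0.231. The ratios are descriptions and rest on the gene lengths the authors used.

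Without oxLDL + pNaKtide replicate 4, 6 of the 10 genes and 41.5% of all genes were called, with Pnpla2 at 0.73 (adjusted p 0.0001), Lipe at 0.57 (adjusted p 0.000415) and Mgll at 0.40 (adjusted p 0.00673, all by edgeR). Plin3 lost its call without oxLDL replicate 1, 2 or 5 or without oxLDL + pNaKtide replicate 4, at log2 fold changes of 0.15 to 0.19, and Plin1 gained one without oxLDL + pNaKtide replicate 2 (0.20, adjusted p 0.0885, edgeR). With library sizes as the only scaling, the median of all genes moved from -0.086 to -0.30 and the 3 lipase genes were called, at 0.55 for Pnpla2, 0.35 for Lipe and 0.22 for Mgll, with Plin3 reversed to -0.021 (adjusted p 0.849, edgeR) and Plin1, Plin4 and G0s2 also negative without a call. With the GC and length trend out, Cidec was at 0.010 (adjusted p 0.949) and Plin3 at 0.072 (adjusted p 0.477), neither called by edgeR, and G0s2 was called lower at -0.55 (adjusted p 0.00112, edgeR). Of the 9 adipocyte markers 4 were higher in this comparison, among them Cfd (0.90, adjusted p 0.000202) and Retn (0.71, adjusted p 0.000136), and 1 was lower, Cd36 (-0.73, adjusted p 0.000159, all by edgeR). Of the 7 preadipocyte or fibroblast markers Dlk1 (1.00, adjusted p 0.00157) and Ly6a (0.54, adjusted p 0.00456) were higher and Pdgfra (-0.57, adjusted p 0.00112, all by edgeR) was lower. Des was higher (1.09, adjusted p 7.62e-05, edgeR), and the part of these markers was not tested.

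**Figure D3:**
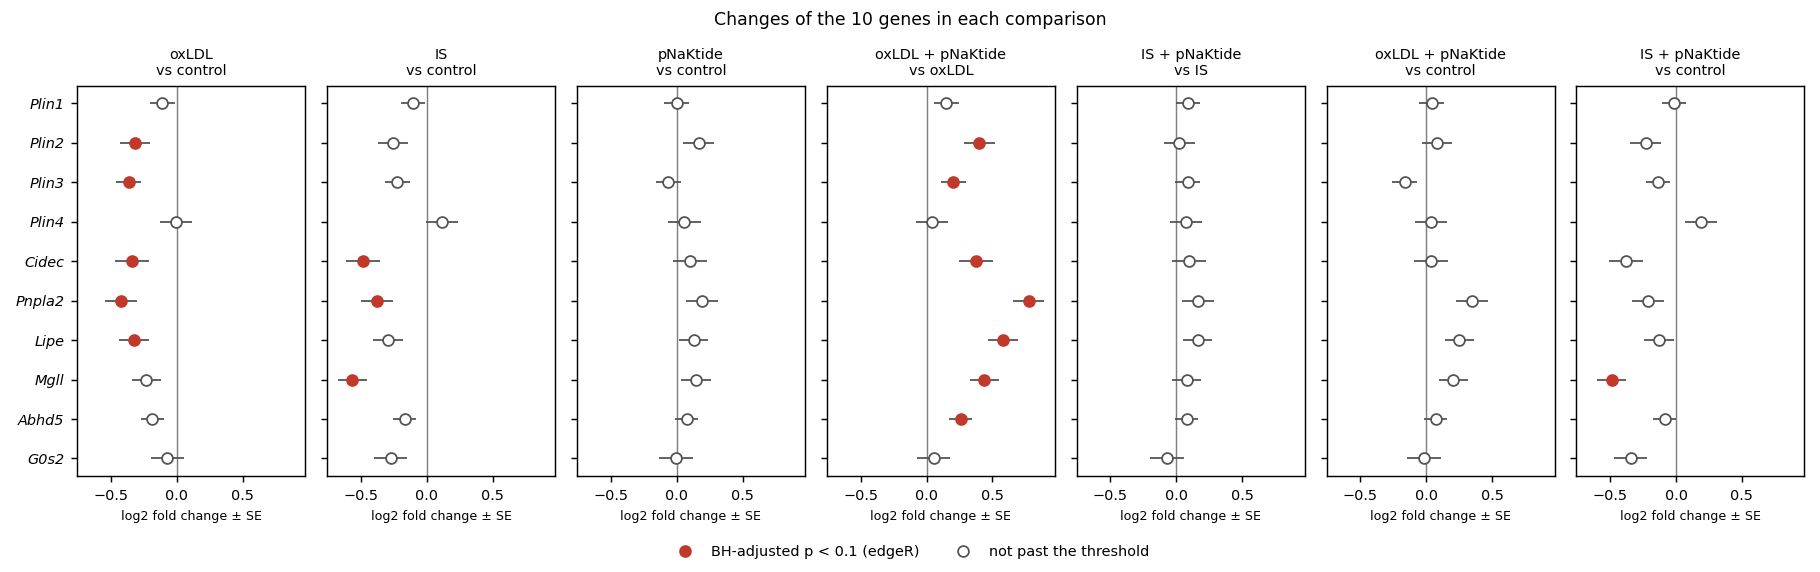
Log2 fold change ± SE of the 10 genes in 7 comparisons of groups, with filled points for a BH-adjusted p-value under 0.1 in edgeR. The panels share an axis, and 7 filled points stand in the panel of oxLDL + pNaKtide against oxLDL, of which Plin3 turns to -0.021 when scaled by library size alone, against 0 in the panel of IS + pNaKtide against IS.

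Against control, the oxLDL + pNaKtide group had 0 of the 10 genes called by edgeR, with 5.2% of all genes called, 2 of the 10 at an unadjusted p-value under 0.05 and 2 called by DESeq2. Those 2 were Pnpla2 (0.35, SE 0.12, adjusted p 0.115, edgeR) and Lipe (0.25, SE 0.11, adjusted p 0.229, edgeR). All 5 libraries of Pnpla2 and of Lipe lay above the control mean. Pnpla2 passed the threshold without control replicate 4 (0.39, adjusted p 0.085) and without oxLDL + pNaKtide replicate 2 (0.41, adjusted p 0.0587) or 3 (0.41, adjusted p 0.0634, all by edgeR). These were 3 of the 10 fits without 1 library of the compared groups. Over the 10 fits its lowest log2 fold change was 0.27, and its largest adjusted p-value was 0.27 (edgeR), without control replicate 1. Pnpla2 was also called higher in 6 of the 11 alternatives, at 0.25 to 0.37 over all 11. Plin3 had the most negative value (-0.16, SE 0.09, adjusted p 0.394, edgeR) and was called lower with library size alone (-0.26, adjusted p 0.0346, edgeR).

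pNaKtide added to IS changed 0 of the 10 genes past the threshold, by edgeR or by DESeq2, and 0 had an unadjusted p-value under 0.05. Over all genes 0% were called, with 564 at an unadjusted p-value under 0.05. Pnpla2 was at 1727, 1855, 2093, 2058 and 1978 CPM with IS + pNaKtide, of which all but replicate 1 lay above the IS mean of 1732 CPM (0.17, SE 0.12). Lipe was at 746 to 936 CPM (0.16, SE 0.11), and Mgll at 9.39 to 12 CPM (0.078, SE 0.11). The other log2 fold changes lay between -0.070 for G0s2 and 0.098 for Cidec, all with adjusted p-values of 1 (edgeR).

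Against control, the IS + pNaKtide group had 1 of the 10 genes called, Mgll, with 0.358% of all genes called (0.218% lower). Mgll was at 11.6, 10.9, 12, 11.4 and 9.39 CPM, below every control library, where groups did not overlap for 3.79% of all genes (-0.49, SE 0.11, adjusted p 0.07, edgeR). Its call was lost without any library of these groups other than control replicate 1, at log2 fold changes of -0.52 to -0.43. Without control replicate 1, where 26.9% of all genes were called, 5 genes were lower: Mgll, Cidec (-0.47, adjusted p 0.0162), G0s2 (-0.46, adjusted p 0.0143), Plin2 (-0.33, adjusted p 0.0377) and Pnpla2 (-0.29, adjusted p 0.0822, all by edgeR). Plin4 was at 1596 to 2206 CPM and did not pass the test (0.19, SE 0.12, adjusted p 0.375, edgeR). Of the 7 preadipocyte or fibroblast markers 1 was called with all libraries, Col1a1, which was lower (-1.04, adjusted p 0.0568, edgeR). Of the 9 adipocyte markers 0 were called, and the part of these markers was not tested.

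Whether the change with pNaKtide differed between conditions was tested as a difference of changes. The change under oxLDL was more positive than that of pNaKtide alone for 2 of the 10 genes, Pnpla2 (0.58, SE 0.17, BH-adjusted p-value 0.0311, edgeR's quasi-likelihood test) and Lipe (0.45, SE 0.16, adjusted p 0.0521, edgeR). Of all genes, 24.6% were called for this difference (12.8% higher). Of the 9 adipocyte markers Cebpa (0.46) and Cfd (0.73) were called higher and Cd36 (-0.73) lower. Of the 7 preadipocyte or fibroblast markers Dlk1 (0.95) and Col1a1 (0.76) were higher, as was Des (0.89). The part of these markers was not tested. Lipe lost its call without control replicate 5 (0.40, adjusted p 0.105) or pNaKtide replicate 3 (0.42, adjusted p 0.107). Without control replicate 1, 5 genes and 37.5% of all genes were called, with Plin3 (0.34), Mgll (0.35) and Plin2 (0.33) added. With the GC and length trend out, neither Pnpla2 (0.28, adjusted p 0.125) nor Lipe (0.23, adjusted p 0.266) was called by edgeR. With library size alone Pnpla2 was at 0.39 (adjusted p 0.0391) and Lipe, at 0.25 (adjusted p 0.129, both by edgeR), was not called.

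The change with pNaKtide was less positive under IS than under oxLDL for 4 of the 10 genes, against 29.3% of all genes called (13.9% lower). These were Pnpla2 (-0.61, SE 0.17, adjusted p 0.0166, edgeR), Lipe (-0.42, SE 0.16, adjusted p 0.0584, edgeR), Plin2 (-0.38, SE 0.16, adjusted p 0.0963, edgeR) and Mgll (-0.36, SE 0.16, adjusted p 0.0981, edgeR). Of the 9 adipocyte markers Cfd (-0.92) and Retn (-0.60) were called lower and Cd36 (0.65) higher. Of the 7 preadipocyte or fibroblast markers Dlk1 (-1.08) and Ly6a (-0.52) were lower and Pdgfra (0.49) higher. Des was lower (-1.12), and the part of these markers was not tested. The call of Pnpla2 held in all 11 alternatives and in each of the 20 fits without 1 library, although its value was -0.35 (adjusted p 0.0413, edgeR) with the GC and length trend out and -0.40 with library size alone. Those settings ended the calls of Lipe (-0.27 and -0.21, adjusted p 0.165 and 0.193) and Mgll (-0.23 and -0.17, adjusted p 0.308 and 0.421, edgeR), and library size alone that of Plin2 (-0.17, adjusted p 0.311, edgeR). With the trend out Abhd5 was called (-0.36, adjusted p 0.0465, edgeR). Lipe also lost its call without IS replicate 4 (-0.35, adjusted p 0.109), IS + pNaKtide replicate 1 (-0.37), oxLDL replicate 1 (-0.38) or oxLDL + pNaKtide replicate 5 (-0.35). Plin2 and Mgll, close to the threshold, lost theirs without any 1 of 11 and any 1 of 15 libraries, respectively, with log2 values of -0.39 to -0.30. The change under IS did not differ by the test from that of pNaKtide alone for any of the 10 genes, by edgeR or DESeq2, with 0 at an unadjusted p-value under 0.05 and 0% of all genes called. The largest value was that of Plin3 (0.15, SE 0.13).

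**Figure D4:**
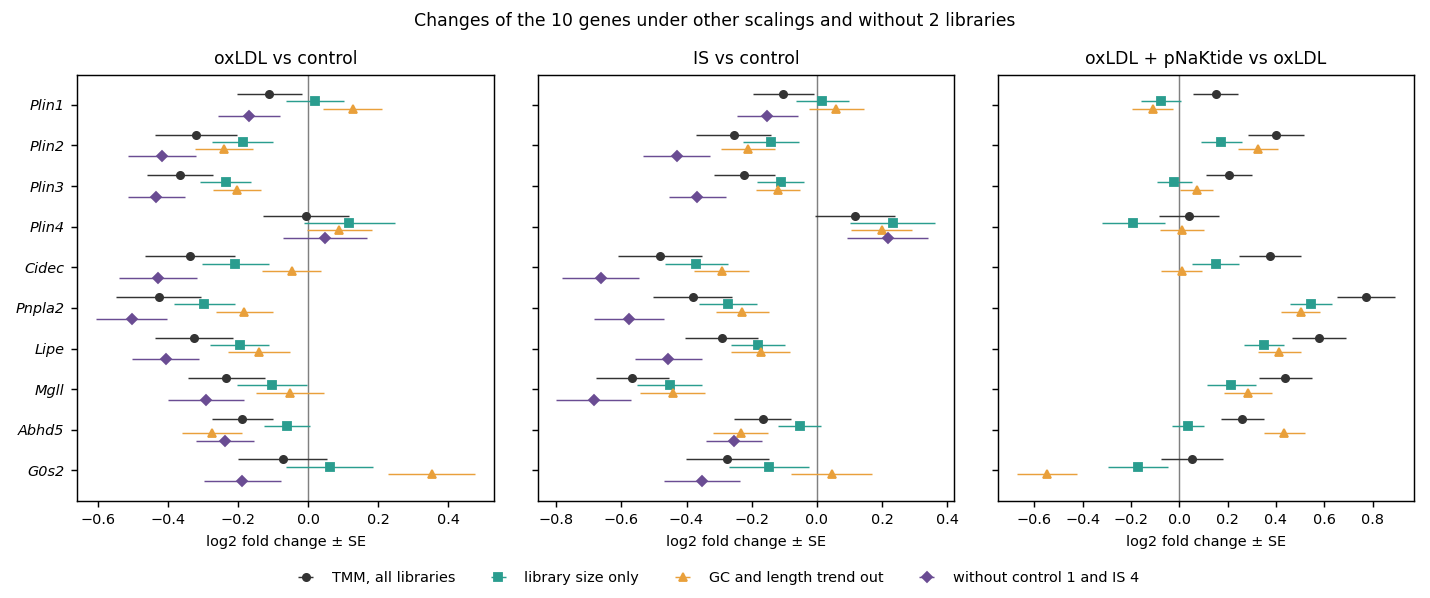
Log2 fold change ± SE of the 10 genes in 3 comparisons, with TMM and all libraries, library size alone, the GC and length trend taken out and, in the panels against control, control replicate 1 and IS replicate 4 left out. Pnpla2 stayed between 0.50 and 0.77 for oxLDL + pNaKtide against oxLDL, whereas G0s2 ranged from -0.55 to 0.054 and Plin3 turned from 0.20 to -0.021 with library size alone.

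Libraries with more Pnpla2 also had more of most other genes in the list. Over the 30 libraries, which share groups, depth and GC trends, the gene most alike in pattern to Lipe among 10372 was Pnpla2 (Pearson's r = 0.98, Spearman's rho = 0.98). For Pnpla2 it was Crat, which encodes carnitine acetyltransferase (r = 0.98, rho = 0.98), and for Plin2 it was Hsd17b10, a mitochondrial dehydrogenase (r = 0.98, rho = 0.98). Mgll was most like Dgat2, an enzyme of triglyceride synthesis (r = 0.90, rho = 0.92), Cidec like Fam83a (r = 0.96) and Abhd5 like Aco1 (r = 0.93). Plin3 was most like Dbnl (r = 0.95), Plin1 like Idh3g (r = 0.85), G0s2 like Suclg1 (r = 0.84) and Plin4 like Sec24c (r = 0.83). Between members, Cidec and Plin2 had r = 0.93, whereas Plin4 had r = -0.42 with Plin2 and -0.52 with G0s2. These correlations are descriptions of patterns that include the differences between groups.

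Other genes of the droplet and of lipolysis were counted by list, beside the share of all genes called in the same comparison. The fit without control replicate 1 and IS replicate 4 called 48% of all genes for oxLDL and 45.8% for IS, against which the counts of that fit stand. All other shares given for the lists are those of TMM with all libraries. The shares with library size alone, with the trend out and in further alternatives are not given, so list counts of those settings have no share to stand against. Of 15 other proteins of the droplet surface, 14 were tested, with Hsd17b13 too low. With oxLDL 1 was higher and 2 lower than control, against 36% of all genes called, or 2 and 2 by library size alone, 1 and 4 with the GC and length trend out and 1 and 5 without control replicate 1 and IS replicate 4. Rab18, a GTPase of the droplet surface, was at 74.8 ± 13.8 against 49.7 ± 11.4 CPM (0.59, SE 0.16, adjusted p 0.0122, edgeR), and Aup1, which recruits ubiquitin enzymes to droplets, at 117 ± 10.5 against 163 ± 28.9 CPM (-0.48, SE 0.12, adjusted p 0.00998, edgeR). With pNaKtide added to oxLDL 4 were higher and 2 lower, against 48.3% of all genes, among them Aup1 (0.74, adjusted p 4.34e-05), the seipin gene Bscl2 (0.54, adjusted p 0.000765) and Rab18 (-0.66, adjusted p 0.00163, all by edgeR). Scaled by library size alone, 2 were higher and 4 lower in that comparison, and with the trend out 5 and 3. With IS 0 of 14 were called by edgeR and up to 6 in the alternatives, with 1 higher and 5 lower without control replicate 1 and IS replicate 4.

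In the list of hormonal control of lipolysis, 31 of 32 genes were tested. With oxLDL 6 were higher and 5 lower than control, a share near the 36% of all genes. The split was 8 and 4 when scaled by library size alone, 2 and 6 with the GC and length trend out and 12 and 6 without control replicate 1 and IS replicate 4. Gnai3, an inhibitory G protein subunit, rose from 63.4 ± 11.9 to 94.1 ± 10.0 CPM (0.57, SE 0.13, adjusted p 0.00809, edgeR), and Prkar2b, a regulatory subunit of protein kinase A, from 121 ± 21.3 to 172 ± 22.3 CPM (0.51, SE 0.13, adjusted p 0.0085, edgeR). Akt2, the kinase through which insulin acts in fat cells, fell from 331 ± 40.1 to 244 ± 19.4 CPM (-0.44, SE 0.10, adjusted p 0.00783, edgeR), and Gnai2 also fell (-0.48, adjusted p 0.00955, edgeR). With pNaKtide added to oxLDL 6 were higher and 8 lower, near the 48.3% of all genes, or 4 and 14 by library size alone and 9 and 2 with the trend out. Akt2 (0.53, adjusted p 0.000142) and Gnas, the stimulatory G protein subunit (0.49, adjusted p 0.000963), were higher, and Gnai3 (-0.65, adjusted p 0.000314) and Prkacb, a catalytic subunit of protein kinase A (-0.46, adjusted p 0.000124, all by edgeR), were lower. With IS 2 were higher and 2 lower, against 7.94% of all genes, or 4 and 1 by library size alone, 0 and 4 with the trend out and 9 and 8 without control replicate 1 and IS replicate 4, with 45.8% of all genes called there. With all libraries Gnai3 was at 0.44 (adjusted p 0.0761) and Akt2 at -0.38 (adjusted p 0.0614, both by edgeR).

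Of 11 other lipases and genes for the fate of the products, 1 was higher and 3 were lower with oxLDL, a share near the 36% of all genes. The split was 4 and 2 by library size alone, 0 and 6 with the GC and length trend out and 2 and 3 without control replicate 1 and IS replicate 4. Abhd12 (-0.38, SE 0.11, adjusted p 0.0154, edgeR) and Abhd6 (-0.39, SE 0.11, adjusted p 0.0111, edgeR), which cleave monoglycerides as Mgll does, were lower, and the glycerol kinase gene Gk was higher (0.52, SE 0.16, adjusted p 0.0189, edgeR). With pNaKtide added to oxLDL, 2 were higher and 2 lower, against 48.3% of all genes, or 1 and 5 by library size alone and 7 and 0 with the trend out. With TMM scaling Abhd12 (0.63, adjusted p 6.2e-05) and Abhd6 (0.40, adjusted p 0.00298) were higher and Gk lower (-0.63, adjusted p 0.00242, all by edgeR). With IS 0 of 11 were called by edgeR and up to 4 in the alternatives, with 1 higher and 3 lower without control replicate 1 and IS replicate 4.

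Triglyceride assembly, which supplies the lipid that the lipases remove, was measured with 12 of 13 genes. With IS 5 were lower and 0 higher, against 7.94% of all genes called (3.49% lower). The count of lower genes was 3 by library size alone, 2 with the GC and length trend out and 8, with 1 higher, without control replicate 1 and IS replicate 4, where 45.8% of all genes were called, and the alternatives called 0 to 9 genes in all. Among the 5 were both genes for the last step, Dgat2 (279 ± 27.1 CPM in control and 201 ± 23.3 with IS, -0.47, SE 0.09, adjusted p 0.0113, edgeR) and Dgat1 (-0.32, SE 0.10, adjusted p 0.0789, edgeR). With oxLDL 1 was higher and 4 lower, against 36% of all genes, or 2 and 2 with the GC and length trend out and 1 and 7 without control replicate 1 and IS replicate 4. With all libraries Agpat3 was at -0.43 (adjusted p 0.00866) and Gpat4 at -0.31 (adjusted p 0.0111, both by edgeR). With pNaKtide added to oxLDL 7 were higher and 2 lower, against 48.3% of all genes (22.1% higher), or 4 and 3 by library size alone and 6 and 1 with the trend out. Dgat1 was at 413 ± 54.9 against 249 ± 22.8 CPM (0.73, SE 0.10, adjusted p 9.15e-06, edgeR) and Agpat2 at 1342 ± 178 against 848 ± 109 CPM (0.66, SE 0.13, adjusted p 0.000134, edgeR). With pNaKtide alone and with pNaKtide added to IS, 0 genes of any of these 4 lists were called by edgeR.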

How the data were processed

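RNA-Seq of 30 libraries of 3T3-L1 cells was analysed. The authors trimmed the paired-end reads with Trimmomatic 0.38 and aligned them to GRCm38 with HISAT2 2.1.0. The authors then counted reads per gene with GenomicAlignments, and these raw counts were deposited without normalization. The FPKM values deposited by the authors are scaled per kilobase and to depth. The annotation release, gene lengths and use of strand in counting were not given in the sources used here. A deposited table of normalized counts was not used here.

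Software was edgeR 4.0.16, limma 3.58.1 and DESeq2 1.42.0 under R 4.3.3, and Python 3.11.15. Genes with more than 14 counts over the 30 libraries (20139 of 54232) were scaled by TMM. A robust quasi-likelihood model of 6 groups was fitted in edgeR for 8 comparisons and 3 differences between changes. P-values were BH-adjusted over all genes tested, with a threshold of 0.1. All 10 genes were named, and of the other lists at most 2 genes in each direction with the smallest adjusted p-value and a mean log2 CPM of at least 1. The genes, lists and tests were chosen with earlier results of these data known. Chi-square divided by its degrees of freedom was at least 1.28 for each of 60 pairs of libraries in a group, so none was treated as a duplicate. The steps were tested on simulated counts of the 30 libraries for 20139 genes, with 200 genes changed in oxLDL, by the comparison of oxLDL with control. The simulated counts held no trend of a library over GC content and length, so they do not show how calls behave under it. edgeR called 60 of 100 genes changed by a log2 fold change of 0.5 and 94 of 100 changed by 1, with 11 unchanged genes called.

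Alternatives were DESeq2, its size factors, library size alone, filters of more than 14 counts in every library or at least 1 count, limma-trend on log2(FPKM + 1) where the mean FPKM reached 0.5, models of the compared groups alone, an adjusted p-value of 0.05, the replicate number as a block, removal of the trend of a library over GC content and transcript length (GENCODE M21, splines of 5 degrees of freedom), the omission of control replicate 1 with IS replicate 4, and the omission of each library in turn.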

Additional observations from a re-analysis of the deposited data

Results flagged for a closer look

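A group of 5 libraries was noted when its highest or lowest CPM stood far from the others (Dixon's test at 95%), which chance alone gives in about 1 in 20 groups. Of 60 groups examined, 6 were noted. Control replicate 1 was low for Plin2, at 819 CPM, where the next control library was at 1200. IS replicate 4 was high for 3 genes: Plin2 at 1150 CPM (the next at 927), Pnpla2 at 2270 (the next at 1690) and Lipe at 928 (the next at 750). The other 2 were Plin3 in oxLDL + pNaKtide replicate 4, at 106 CPM (the next at 88.2), and Abhd5 in oxLDL replicate 3, at 492 CPM (the next at 422). On the first principal component 2 of 6 groups were noted by the same test, with IS replicate 4 at 28.2 (the next at -23.2) and IS + pNaKtide replicate 2 at -2.45 (the next at -15.3). The reason was not tested.

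The change with pNaKtide differed between conditions by a test of the difference for 6 values. Under oxLDL it exceeded that of pNaKtide alone by 0.582 on the log2 scale for Pnpla2 and by 0.45 for Lipe. Under IS it differed from that under oxLDL by -0.609 for Pnpla2, -0.416 for Lipe, -0.377 for Plin2 and -0.361 for Mgll. These differences share libraries with one another and with the comparisons of groups.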

How the results depend on the processing

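Of 2600 values of the 10 genes under alternatives, 2241 kept their direction and their side of the threshold. The others were 180 that differed in sign without a call, 71 that gained and 105 that lost a call, and 3 that reversed. Reversed were Plin3 for oxLDL + pNaKtide against oxLDL with library size alone (-0.021), and G0s2 with the GC and length trend out, at 0.35 for oxLDL against control (adjusted p 0.0546, edgeR) and -0.55 for oxLDL + pNaKtide against oxLDL. With library size alone, 3 genes were called for oxLDL against control, 3 for oxLDL + pNaKtide against oxLDL, 2 for oxLDL + pNaKtide against control (Pnpla2 higher and Plin3 lower), 0 for IS + pNaKtide against control, and 1 for the difference of oxLDL from pNaKtide alone and of IS from oxLDL. With DESeq2 the counts were 7 for oxLDL, 5 for IS, 2 for oxLDL + pNaKtide and 3 for IS + pNaKtide, each against control, with 38%, 15.7%, 9.04% and 7.38% of all genes called, and 8 for oxLDL + pNaKtide against oxLDL and 3 for the difference of oxLDL from pNaKtide alone, with 47.9% and 29.2%. Counts were 5 for IS and 1 for oxLDL + pNaKtide against control with more than 14 counts in every library, 0 for IS + pNaKtide and 2 for the difference of IS from oxLDL with at least 1 count, and 1 for oxLDL + pNaKtide against control with limma. With the GC and length trend out, 2 were called for oxLDL + pNaKtide against control and 0 for the difference of oxLDL from pNaKtide alone. Models of the compared groups alone called 0 for IS and 2 for IS + pNaKtide against control. An adjusted p-value of 0.05 left 1 for IS, 0 for IS + pNaKtide and 1 for either difference. Without control replicate 1 and IS replicate 4 the counts were 7 for oxLDL, 8 for IS and 6 for IS + pNaKtide against control, 6 for the difference of oxLDL from pNaKtide alone and 2 for that of IS from oxLDL, with 48%, 45.8%, 32.7%, 40.3% and 24.6% of all genes called. When each library was left out in turn, counts ranged from 4 to 7 for oxLDL, 0 to 8 for IS, 0 to 1 for oxLDL + pNaKtide and 0 to 5 for IS + pNaKtide, all against control. They ranged from 6 to 8 for oxLDL + pNaKtide against oxLDL, and from 1 to 5 and 1 to 4 for the differences of oxLDL from pNaKtide alone and of IS from oxLDL. The causes were not tested, other than that a stricter threshold calls fewer genes by construction. Where no share of all genes called stands beside a count, the count is not read as a result about the 10 genes.

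Whether equal replicate numbers pair the libraries is not given by the labels and was not settled here. Of 75 pairs with the same number in different groups, 37 had a correlation of deviations over 0.1 (range -0.66 to 0.79). The median was 0.1 for these pairs and -0.034 for pairs with different numbers. With the replicate block, the pairing of equal numbers, 6 genes were called for oxLDL, with Mgll added, 5 for IS, 1 for oxLDL + pNaKtide and 2 for IS + pNaKtide, each against control, with 38.8%, 17%, 8.21% and 6.64% of all genes called. The counts for pNaKtide against control, IS + pNaKtide against IS and IS against oxLDL were 0 in every alternative. Mgll, with 108 to 206 counts per library, had the least depth.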
